A study of Mus musculus with 4 samples.

Results

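The clustered histone genes were taken as every row of the count tables whose symbol begins with Hist1h, Hist2h, Hist3h or Hist4h, which gave 69 of the 27998 genes listed. They comprise 6 linker histone H1 genes and, for the nucleosome core, 19 H2a, 19 H2b, 12 H3 and 13 H4 genes. The tables come from tumours of 4 littermate mice collected at postnatal day 20. All 4 mice carry Atoh1-cre and the SmoM2 allele: Atoh1-cre acts in granule neuron precursors and there switches on SmoM2, a constitutively active form of the hedgehog transducer Smo, and a medulloblastoma of the SHH subgroup forms in the cerebellum. No wild-type cerebellum, untreated group or second genotype enters any comparison here, so every contrast lies between classes of cells inside the same 4 tumours. Each tumour was dissociated with Accutase for 20 min, live cells were sorted by exclusion of the dye 7-AAD, and 10000 cells per mouse were loaded for droplet sequencing of transcript 3′ ends (10x Genomics). The library of mouse 1 was sequenced a second time. The question was how the histone genes differ between cell cycle phases and between dividing and differentiating cells of the granule lineage. Cells like that lineage were also compared with other cell classes of the tumours, and those other classes were named from markers.

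Most clustered histone genes belong to the replication-dependent class: they have no introns, and their transcripts are made in bulk while DNA is copied, so that new chromatin can be packed. These transcripts end in a short conserved stem-loop in place of a poly(A) tail. The stem-loop is bound by the protein Slbp, and the transcripts are degraded when replication stops. Some members also give rise to polyadenylated transcripts that extend past the stem-loop, and such forms are known from cells that have left the cycle. The H2A and H2B proteins pair with each other, as do H3 and H4, and linker H1 proteins bind where DNA enters and leaves the nucleosome. Granule neuron precursors divide under hedgehog signalling before they differentiate into cerebellar granule neurons, and SHH medulloblastoma keeps many cells in that dividing state.

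The count of a histone gene here is a count of polyadenylated or otherwise captured RNA, since the libraries were primed on poly(A), and it was low. A UMI marks a molecule at its 3′ end, so levels were not divided by transcript length. After filtering, 4101 cells held 8917 histone unique molecular identifiers (UMIs, each standing for 1 captured molecule). Of the 69 members, 2 (Hist1h1t, the testis H1, and Hist1h2ba, a testis H2B) had no UMI, 22 had 1 to 9, 31 had 10 to 99 and 14 had at least 100. Those 14 held 86.5% of all histone UMIs, and the 4 highest held 50.2%: Hist3h2ba with 1261 UMIs, Hist1h1b with 1255, Hist1h2al with 1090 and Hist3h2a with 866. Hist1h1e followed with 850, Hist1h4i with 443, Hist1h2bc with 399, Hist1h2ap with 383, Hist1h2ae with 295 and Hist1h1c with 285. H3 genes were the scarcest. Hist1h3a led them with 77 UMIs, before Hist1h3c with 70 and Hist1h3e with 38, and no H3 gene had enough counts to enter a test.

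In the mouse annotation (GENCODE M21, build GRCm38, which is mm10), 68 members were found, and all but Hist2h2bb.1 could be placed: 55 members lie on chromosome 13, 10 on chromosome 3, 2 on chromosome 11 and 1 on chromosome 6. The genes described most often below are Hist1h1b (chr13:21779883-21780625, minus strand), Hist1h1e (chr13:23620629-23622558, minus), Hist1h1c (chr13:23738808-23740367, plus), Hist1h2ap (chr13:21833026-21833507, minus), Hist1h2ae (chr13:23570517-23571220, minus), Hist1h2bc (chr13:23684199-23692908, plus), Hist3h2ba (chr11:58948920-58949533, plus) and Hist3h2a (chr11:58954685-58956830, plus). All are annotated as protein coding, and all but Hist1h2bc, which has 2 exons, consist of 1 exon. Hist1h2al differs: it is annotated as a processed pseudogene (chr13:51202727-51203065, minus strand) and its transcript is 99.4% identical to that of Hist2h2aa1. Of the members, 44 have another member at least 95% identical to them, so how reads were shared among near-identical copies is uncertain for single genes such as Hist1h2al, Hist1h2ap (98.7% identical to Hist1h2an), Hist1h2bc and Hist1h2bj (both 99.5% identical to Hist1h2bq). Hist1h1e overlaps the longer Hist1h2be transcript on the same strand, and reads from the shared stretch cannot be told apart.

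A stem-loop was found in the annotated transcripts of 46 members. The 7 below are shown because these genes moved in different directions in the results that follow while carrying nearly the same element. Each is written as DNA, 5′ to 3′ along the transcript's strand (GENCODE M21), with the paired stem and its loop in capitals.
Hist1h2ap: aaaaaGGCTCTTTTCAGAGCCatc
Hist1h2ae: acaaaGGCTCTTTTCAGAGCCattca
Hist1h1e: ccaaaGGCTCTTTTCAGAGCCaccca
Hist1h1c: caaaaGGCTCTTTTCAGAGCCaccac
Hist3h2ba: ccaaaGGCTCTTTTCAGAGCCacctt
Hist3h2a: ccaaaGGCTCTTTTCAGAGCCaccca
Hist1h4i: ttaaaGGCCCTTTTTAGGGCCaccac
The core of Hist1h2ap, Hist1h2ae, Hist1h1e, Hist1h1c, Hist3h2ba and Hist3h2a was the same, and Hist1h4i had another stem. What differed was how far the annotated transcript runs on. The longest annotated Hist1h2ap transcript ends 3 bases past the element. The Hist1h2ae transcript ends 151 bases past it, that of Hist3h2ba 169, that of Hist1h4i 330, that of Hist1h1c 840, that of Hist1h1e 1153 and that of Hist3h2a 1643 bases past it. A poly(A) signal (AATAAA or its variant ATTAAA, searched on the transcript strand only) lay in the last 50 bases of 17 members, among them Hist1h2ae, Hist1h4i, Hist1h1c, Hist3h2ba and Hist3h2a, and not of Hist1h1e. Of all 141767 annotated transcripts, 33.7% have such a signal there and 0.0487% (69 transcripts) hold the stem-loop. A match to these letters is a description of the annotated transcript and does not show which transcript was captured.

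Promoter sequence was available for 61 members (RefSeq, GRCm38.p6). The 5 below, each 200 bases up to the RefSeq start and written 5′ to 3′ on the gene's strand, are shown because they belong to 2 genes that rose in cycling cells (Hist1h1b, Hist1h2ae), 2 that were lower there (Hist3h2a, Hist3h2ba) and 1 whose difference between G1 and S did not pass the test (Hist1h1c). Capitals mark the CCAAT box (CCAAT), the TATA box (TATAAA), the octamer (ATTTGCAT) and the H1 element (AAACACA), searched on both strands, so that their reverse complements are in capitals too. The motifs were searched one by one, whether or not they overlap. In the Hist1h2ae window, the TATAAA and octamer matches lie on the opposite strand. The window of the neighbouring Hist1h2bg overlaps it and holds the same matches on its own strand. Which gene a match serves was not tested.
Hist1h1b (chr13:21780626-21780825, minus strand): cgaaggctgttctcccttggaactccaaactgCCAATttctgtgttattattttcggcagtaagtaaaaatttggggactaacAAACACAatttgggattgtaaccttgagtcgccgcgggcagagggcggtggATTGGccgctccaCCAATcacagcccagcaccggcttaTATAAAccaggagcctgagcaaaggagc
Hist1h1c (chr13:23738607-23738806, plus strand): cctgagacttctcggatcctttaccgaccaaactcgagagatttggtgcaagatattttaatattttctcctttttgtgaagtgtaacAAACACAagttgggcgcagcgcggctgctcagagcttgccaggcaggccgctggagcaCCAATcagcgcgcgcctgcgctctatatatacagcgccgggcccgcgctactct
Hist1h2ae (chr13:23571221-23571420, minus strand): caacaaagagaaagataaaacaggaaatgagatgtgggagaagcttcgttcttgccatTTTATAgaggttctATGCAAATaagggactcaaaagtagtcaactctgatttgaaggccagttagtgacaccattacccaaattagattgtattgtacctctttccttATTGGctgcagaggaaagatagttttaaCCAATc
Hist3h2a (chr11:58954485-58954684, plus strand): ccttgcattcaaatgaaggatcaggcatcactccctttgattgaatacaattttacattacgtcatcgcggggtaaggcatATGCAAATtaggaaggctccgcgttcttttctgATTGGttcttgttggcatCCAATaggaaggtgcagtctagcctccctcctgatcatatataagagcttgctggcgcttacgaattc
Hist3h2ba (chr11:58948711-58948910, plus strand): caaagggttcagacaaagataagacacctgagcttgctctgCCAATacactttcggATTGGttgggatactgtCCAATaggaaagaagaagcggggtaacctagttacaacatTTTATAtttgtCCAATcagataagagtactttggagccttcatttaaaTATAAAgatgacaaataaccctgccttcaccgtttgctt
In windows of 250 bases, CCAAT was present in 82.0% of the 61 histone promoters and in 34.5% of all 27025 promoters in the table. It was present in all 6 H1, 17 H2a and 16 H2b promoters, in 8 of 10 H3 promoters and in 3 of 12 H4 promoters. The octamer was present in 21.3% of histone promoters, all of them H2a (7 of 17) or H2b (6 of 16), and in 1.61% of all promoters. Some H2a and H2b genes lie head to head, such as Hist1h2ae and Hist1h2bg, and their windows overlap on opposite strands. A site shared by such a pair was counted for each gene, so these promoters are not all separate stretches of DNA. AAACACA, an element described for H1 genes, was present in 5 of 6 H1 promoters and in 6.22% of all. TATAAA was present in 47.5% and 13.0%. Hist3h2a and Hist3h2ba, which lie next to each other on chromosome 11, thus carry CCAAT as Hist1h1b does.

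The 4101 cells analysed came from 5670 barcodes and were spread as 1363, 888, 680 and 1170 cells over mice 1 to 4, with median depths of 1699 to 2564 UMIs per cell. The study itself states 4749 cells under its own filter. Of the barcode sequences, 20 occurred in more than 1 library. Clustering was run without the histone genes, and classes were named "like" a cell type from marker lists: 3772 cells were granule-lineage-like, made up of 3303 progenitor-like and 469 differentiating cells, 146 were oligodendrocyte-lineage-like, 139 astroglia-like and 37 myeloid-like. Choroid-plexus-like cells (5) and neutrophil-like cells (2) were too few to describe. The summed level of the granule-lineage markers was 3073 to 3354 UMIs per 1000000 UMIs (CPM) in the granule-lineage-like cells of the 4 mice, 1902 to 2284 in astroglia-like and 360.5 to 851 in myeloid-like cells. In 2 clusters low in Malat1, 1 of 752 progenitor-like cells and 1 of 114 differentiating cells, it was 1860 and 2073 CPM, no higher than in astroglia-like cells. Differentiating markers were at 5781 to 6598 CPM in differentiating and at 1765 to 2097 in progenitor-like cells.

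Phases were called in granule-lineage-like cells from scores over 38 S phase and 51 G2/M genes, none of which is a histone gene. A cell with neither score above 0 was called G1 (1352 cells), and the others were called S (960) or G2M (1460) by the higher score. Because many cells had both scores above 0, the cells were also divided by the sign of each score, a division chosen after seeing the data: S score alone above 0 (S only, 555 cells), both above 0 (S and G2M high, 991 cells) and G2M score alone above 0 (G2M only, 874 cells). Levels (CPM) are UMIs per 1000000 UMIs of the same cells, given per mouse or as mean ± SD over the 4 mice (n = 4). In such sums over cells, fewer cells with a transcript and less transcript per cell cannot be told apart.

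Histone transcripts were highest in cells in which both scores were high. Scrublet had marked 0.870% of cells as doublets, and doublets within this group were not checked with another caller. Summed over all 69 members, their level was 512 ± 105 CPM in G1, 444 ± 61.9 in S only, 1625 ± 137 in S and G2M high and 747 ± 44.5 in G2M only cells. In the cells with both scores high, the 4 mice gave 1469, 1802, 1624 and 1603 CPM, and in S only cells 405, 379, 484 and 509. The lowest value of the former group lay far above the highest of the latter, while G1 and S only cells overlapped. By the usual 3 phases, the sum was 871 ± 92.0 in S and 1173 ± 51.2 in G2M.

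The families did not share 1 profile. H1 genes were at 93.4 ± 26.4 CPM in G1, 90.4 ± 26.5 in S only, 579 ± 51.4 in S and G2M high and 185 ± 39.4 in G2M only cells. H2a genes went from 169 ± 17.2 and 132 ± 10.7 to 636 ± 87.4 and then 234 ± 25.4 over the same groups. H4 genes were at 38.2 ± 16.1, 37.8 ± 11.2, 160 ± 45.5 and 90.1 ± 16.6, and H3 genes at 10.6 ± 1.76, 18.0 ± 8.07, 47.0 ± 12.1 and 28.3 ± 5.09 CPM. H2b genes, in contrast, stayed within 166 ± 32.7 (S only) and 209 ± 23.6 (G2M only) CPM, and all 4 groups of mice overlapped. Within H2b, the flat sum joined single genes with different profiles, given below.

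**Figure D1:**
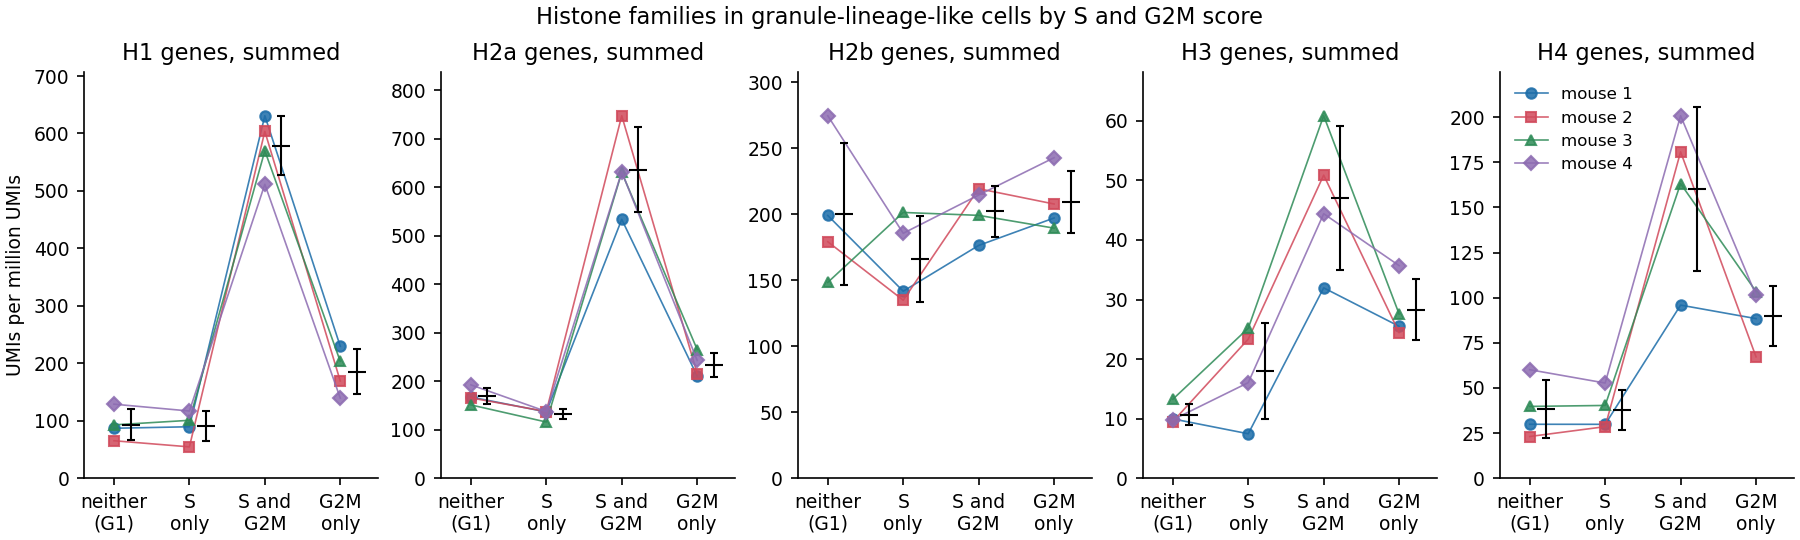
Summed level of the H1, H2a, H2b, H3 and H4 genes (vertical axes, CPM, each from 0) in granule-lineage-like cells grouped by S and G2M score (horizontal axis). Coloured points joined by lines are the 4 mice, and black bars are mean ± SD. H1, H2a, H3 and H4 peak where both scores are high, with H1 at 579 against 90.4 CPM in S only cells, and H2b shows no such peak.

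Depth and RNA quality also differed between these groups. Median depth was 2068 UMIs per cell in G1, 2303 in S only, 2377 in S and G2M high and 1970 in G2M only cells. The share of cells under 30 Malat1 UMIs per 10000 (Malat1 is a nuclear RNA, and a low value can mark cells that lost their nucleus) was 13.6%, 18.0%, 26.9% and 30.7% in the same order. Without the low-Malat1 cells, 8 members were called higher and 2 lower in S against G1, and 10 were called higher in G2M against G1. Depth was tested by thinning every cell to 2000 UMIs and leaving out shallower cells, which left fewer members with enough counts to test.

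Of the 69 members, 13 had enough counts to be tested between phases. The test was edgeR's quasi-likelihood test on counts summed per mouse and phase, with the mouse as a block and Benjamini-Hochberg adjustment over all 7888 genes tested. In S against G1, 9 of the 13 were higher and 2 lower, where 10.7% of all tested genes were higher and 7.63% lower. Their median log2 difference was 1.48, against -0.02 over all genes tested. In G2M against G1, 11 were higher and 2 lower, where 13.9% and 12.3% of all genes were. The other members were too low to test and are not counted in these shares. The filter keeps a gene with enough counts in a single phase, so members high in S or G2M could enter through that phase. How far this enters the shares and the median was not tested.

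Hist1h1b encodes the linker histone H1f5 and is abundant in dividing cells. Its level in mice 1 to 4 was 27.2, 19.0, 29.2 and 38.0 CPM in G1, 169, 128, 109 and 152 in S, and 227, 180.4, 217 and 165 in G2M. All S and G2M values lay above all G1 values, and every mouse was higher in G2M than in S. The log2 difference was 2.37 (SE 0.16, edgeR adjusted p = 1.075e-26) for S against G1 and 2.83 (SE 0.14, adjusted p = 1.237e-38) for G2M against G1. Divided by both scores, Hist1h1b was at 32.3, 31.1, 40.3 and 32.1 CPM in S only cells, at 361, 328, 313 and 295 with both scores high, and at 93.5, 63.2, 103 and 55.3 in G2M only cells. The 3 groups did not overlap.

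Hist1h1e, which encodes H1f4, was present in G1 and rose less. It was at 34.4, 33.9, 50.4 and 54.0 CPM in G1, at 82.3, 52.8, 74.0 and 82.5 in S and at 139, 142, 145 and 101 in G2M. S overlapped G1 through mouse 2 alone, while G2M lay above both. Its log2 difference was 0.84 (SE 0.18, edgeR adjusted p = 9.523e-05) in S and 1.66 (SE 0.15, adjusted p = 3.016e-19) in G2M. Hist1h1c, which encodes H1f2, was at 19.0, 10.9, 13.3 and 33.1 CPM in G1 and at 26.5, 8.52, 28.9 and 26.4 in S, and these groups overlapped (log2 difference 0.15, SE 0.27, adjusted p = 0.7626). In G2M it was at 40.7, 32.6, 22.3 and 32.5 CPM, and its log2 difference from G1 was 0.77 (adjusted p = 0.006553). That call was lost without mouse 1 (adjusted p = 0.1678) or mouse 2 (0.09021), in DESeq2 (0.1261), with cells thinned to 2000 UMIs (0.1309) and without the mouse as a block (0.1653). Hist1h1a, encoding H1f1, was scarce, with 5 UMIs in G1, 36 in S and 58 in G2M, and passed the test in both phases (log2 differences 3.04 and 3.18).

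The make-up of the H1 transcripts moved accordingly. Hist1h1b made up 30.3 ± 1.16% of the H1 UMIs in G1 and 56.0 ± 1.67% in cells with both scores high. The share of Hist1h1e went from 47.0 ± 7.30% to 30.9 ± 2.57% and that of Hist1h1c from 19.6 ± 5.15% to 6.21 ± 0.911%. These shares sum to 100% with Hist1h1a and Hist1h1d, so that a larger share of 1 gene lowers the others, and the level of Hist1h1e itself was 179 ± 23.6 CPM with both scores high and 43.2 ± 10.5 in G1.

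Among H2a genes, Hist1h2ap had the steepest rise. It was at 4.53, 8.14, 2.65 and 6.13 CPM in G1, at 46.4, 44.3, 28.9 and 64.9 in S and at 49.0, 46.6, 59.4 and 68.4 in G2M. Neither phase overlapped G1, and S overlapped G2M. On the log2 scale the difference was 3.08 (SE 0.29, edgeR adjusted p = 9.144e-17) in S and 3.31 (SE 0.27, adjusted p = 9.972e-22) in G2M. Hist1h2ae, another core H2A gene, was at 6.34, 12.2, 5.30 and 9.81 CPM in G1, and at 58.0, 87.8, 36.0 and 81.4 with both scores high. Mouse 3 was lowest in both. Its log2 difference from G1 was 1.77 (SE 0.30, adjusted p = 9.085e-07) in S and 2.40 (SE 0.25, adjusted p = 1.122e-14) in G2M. The pseudogene row Hist1h2al, whose reads may come from other H2a genes, was at 17.2, 19.0, 34.5 and 29.4 CPM in G1 and at 220.2, 369, 360 and 256 with both scores high, and its log2 difference was 2.49 in S and 2.87 in G2M.

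Hist3h2a went the other way. It was at 132, 119, 76.9 and 125 CPM in G1 and at 75.6, 68.1, 41.8 and 64.9 in S, and each mouse was lower in S. The log2 difference came to -0.86 (SE 0.14, edgeR adjusted p = 2.218e-07) in S and -0.72 (SE 0.12, adjusted p = 8.725e-07) in G2M. Its neighbour Hist3h2ba, an H2B gene, was at 148, 153, 117 and 209 CPM in G1 and at 91.6, 102, 116 and 116 in S. No S value reached a G1 value, although mouse 3 was nearly level. The log2 difference was -0.64 (SE 0.12, adjusted p = 3.439e-06) in S and -0.52 (SE 0.10, adjusted p = 2.594e-05) in G2M. For Hist3h2ba the G2M call was lost when progenitor-like cells alone were used (log2 difference -0.23, adjusted p = 0.1611) or without the mouse as a block (-0.50, adjusted p = 0.0603).

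Hist1h2bc, an H2B gene with a spliced transcript in the annotation, had a profile of its own. It was at 9.94, 15.6, 15.1 and 22.9 CPM in S only cells, at 16.6, 29.8, 13.8 and 39.8 with both scores high, and at 54.4, 57.04, 34.5 and 61.0 in G2M only cells. Its highest group was thus G2M only. G2M only cells were higher than S only cells by 1.76 on the log2 scale (SE 0.30, edgeR adjusted p = 1.097e-06) and the cells with both scores high were lower than G2M only cells (log2 difference -1.01, SE 0.22, adjusted p = 2.362e-04), a call lost without the mouse as a block (0.1067). Hist1h2bc was higher in G2M than in G1 (log2 difference 0.82, adjusted p = 7.592e-04), a call lost without mouse 2 (0.06915), in DESeq2 (0.06859) and without the block (0.1182). Between G1 and S its difference did not pass the test (log2 difference -0.68, adjusted p = 0.07717). Hist1h2bc was called lower in S without mouse 2 (edgeR adjusted p = 0.01043) and in progenitor-like cells alone (0.03301). The same held with phases taken from shares of UMIs in the S and G2M genes (0.01632). The other H2b gene tested, Hist1h2bj, was higher in S (log2 difference 1.48, adjusted p = 0.004566), a call lost in DESeq2 (0.06021) and without the mouse as a block (0.07442).

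Both H4 genes that could be tested rose. Hist1h4i was at 13.6, 5.43, 23.9 and 29.4 CPM in G1, at 9.94, 7.78, 10.1 and 29.8 in S only cells and at 53.3, 96.5, 77.5 and 121 with both scores high. The last group lay above the other 2 in all mice. For Hist1h4i the log2 difference was 1.48 in S and 1.79 in G2M against G1 (edgeR adjusted p = 1.129e-07 and 9.976e-13). For Hist1h4d these were 1.31 and 1.80 (adjusted p = 5.648e-04 and 8.107e-09), and the S call was lost with cells thinned to 2000 UMIs (0.83, adjusted p = 0.2976). Hist1h4c, with the next highest level among H4 genes, was at 3.10 ± 2.54 CPM in G1 and 10.1 ± 4.73 with both scores high and was not tested. Of the H3 genes, none tested, Hist1h3a was at 2.34 CPM in G1, 15.1 ± 5.55 in S and 8.40 ± 1.91 in G2M, Hist1h3c at 1.92, 6.14 and 11.5, and Hist1h3e at 1.33, 3.54 and 6.42.

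**Figure D2:**
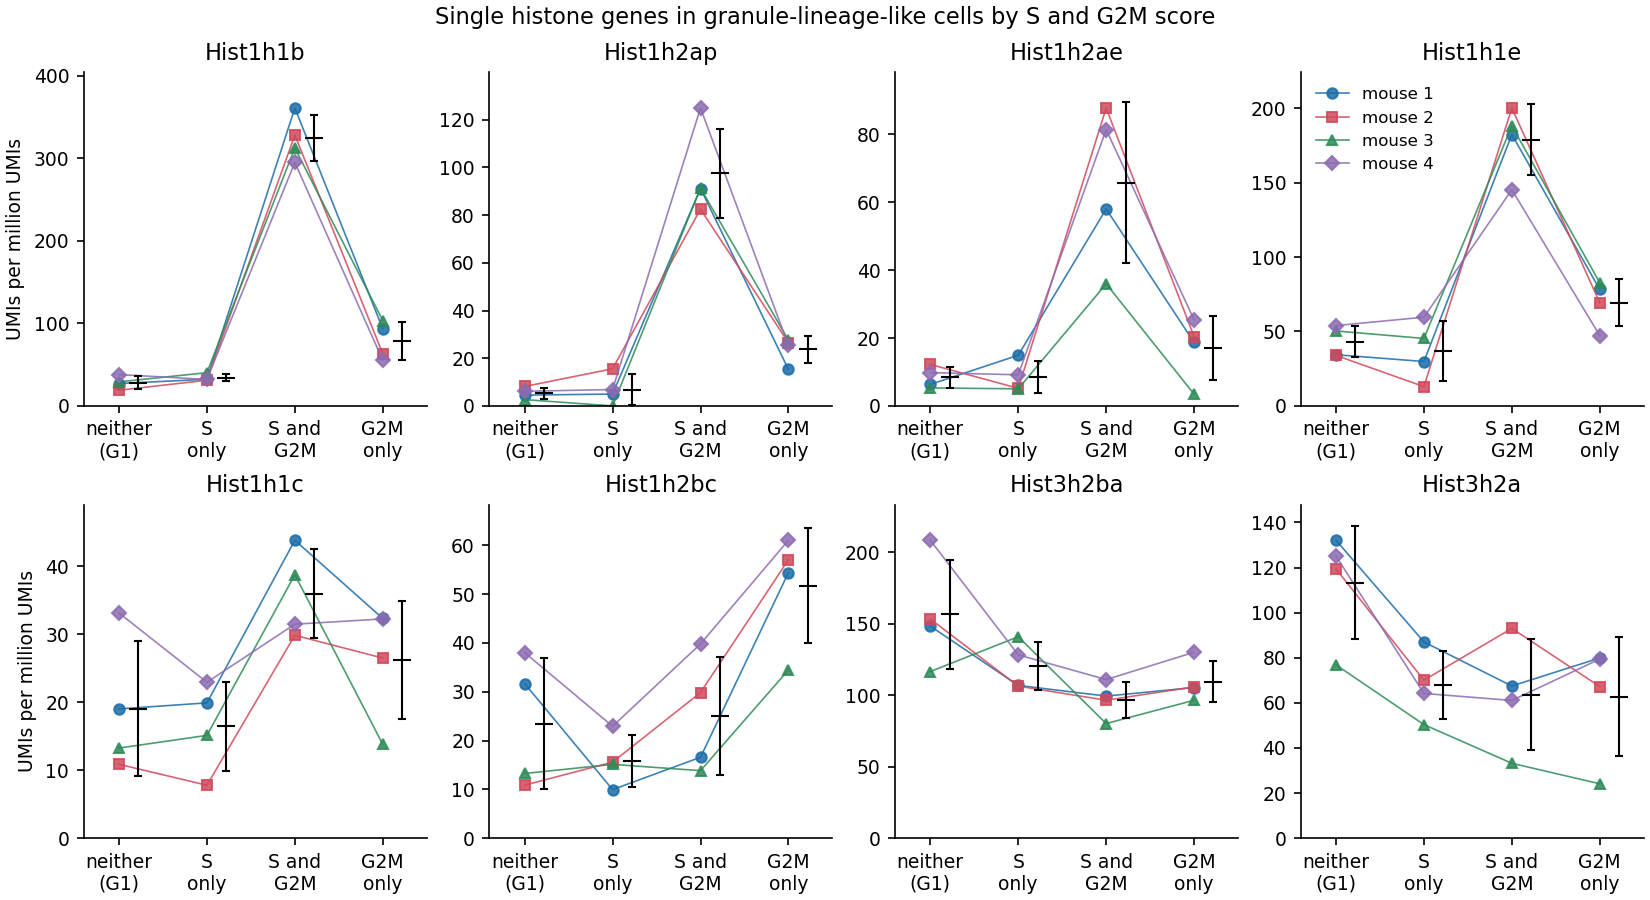
Level of 8 histone genes (vertical axes, CPM, each from 0) in granule-lineage-like cells grouped by S and G2M score (horizontal axis). Coloured points joined by lines are the 4 mice, and black bars are mean ± SD. Hist1h1b, Hist1h2ap, Hist1h2ae and Hist1h1e peak where both scores are high, Hist1h2bc is highest in G2M only cells and Hist3h2ba and Hist3h2a have their highest mean in G1.

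Between S and G2M the median log2 difference of the tested members was -0.46. In S against G2M, 5 of 13 tested members were lower, where 6.35% of all genes were. The log2 differences were -1.50 for Hist1h2bc (edgeR adjusted p = 1.236e-07), -0.82 for Hist1h1e (3.987e-07), -0.63 for Hist1h2ae (0.01897), -0.46 for Hist1h1b (2.667e-04) and -0.38 for Hist1h2al (0.009319). For Hist1h1b and Hist1h2al the sign turned when a cell's phase was taken from its share of UMIs in the S and G2M genes in place of the scores (0.04 and 0.19, adjusted p = 0.8389 and 0.231). The Hist1h2ae call was lost without mouse 1, 2 or 4 (adjusted p = 0.07056, 0.2286 and 0.106), and that of Hist1h2al without mouse 2 or 3 (0.3215 and 0.1253). Both calls were also lost with thinned cells (0.5493 for Hist1h2ae and 0.2222 for Hist1h2al), in DESeq2 (0.4908 and 0.1887) and without the cluster led by Mbp (0.1137 and 0.08865). With phases from UMI shares the Hist1h2ae call was lost as well (0.7424). Without the mouse as a block, 2 members were lower, and Hist1h1b (0.1166), Hist1h2ae (0.4533) and Hist1h2al (0.3394) were not among them.

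The division by both scores gave larger differences. Cells with both scores high were set against S only cells over 6989 genes, and 10 of 13 members were higher, where 5.81% of all genes were. In all comparisons of score groups the filter could again admit a member through the group in which it was high. How far this enters the counts of members called was not tested. On the log2 scale the difference was 3.70 for Hist1h2ap (SE 0.30, edgeR adjusted p = 3.358e-22), 3.58 for Hist1h2al, 3.32 for Hist1h1b (SE 0.16, adjusted p = 1.501e-41), 2.95 for Hist1h2ae and 2.29 for Hist1h1e. For Hist1h1a, with 3 UMIs in S only and 74 in the other group, the ratio of summed levels was 12.3 with a 95% counting interval of 4.04 to 60.9. The smaller differences of Hist1h1c (1.07) and Hist1h2bj (1.29) were lost without single mice: for Hist1h1c without mouse 1 or 2 (adjusted p = 0.1102 and 0.09065), for Hist1h2bj without mouse 2 or 3 (0.127 and 0.1041). Both were also lost without the mouse as a block (0.1335 and 0.1663) and in DESeq2 (0.1109 and 0.1393). The Hist1h1c call was lost without the cluster led by Mbp as well (edgeR adjusted p = 0.09291). With every cell thinned to 2000 UMIs, 7 members had enough counts to be tested and 5 of them were higher, all but Hist3h2a and Hist3h2ba.

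Against G2M only cells, 8 members were higher in the cells with both scores high and 1 lower, where 6.64% and 4.81% of all genes were. The log2 difference came to 2.12 for both Hist1h1b and Hist1h2ap, 2.03 for Hist1h2al and 1.82 for Hist1h2ae. It was 1.40 for Hist1h1e, 1.10 for Hist1h4i and 0.80 for Hist1h4d. The Hist1h4d call was lost without mouse 2 or 4 (edgeR adjusted p = 0.1166 and 0.3043) and in DESeq2 (0.2591). The lower one was Hist1h2bc. Without the mouse as a block 5 members were higher, and the calls of Hist1h4i (0.0657), Hist1h4d (0.21) and Hist1h1a (0.09734) were lost. With cells thinned to 2000 UMIs, 5 of 7 members tested were higher. G2M only against S only cells had 7 members higher, where 6.31% of all genes were. Hist1h1b differed by 1.21 on the log2 scale (adjusted p = 1.458e-05) and Hist1h1e by 0.89 (0.005612), lost without mouse 1 or 2 (0.1259 and 0.1681). Hist1h2ap differed by 1.59, lost without mouse 4 (0.07755), and Hist1h4d by 1.44, lost without mouse 1 (0.1083). In this comparison 4 members were higher without the block, where Hist1h1e (0.09921), Hist1h4d (0.06302) and Hist1h4i (0.08373) lost their calls. After thinning, 2 of 7 members tested were higher, and the calls of Hist1h1b (0.89, adjusted p = 0.05868), Hist1h2ap (1.54, 0.2027) and Hist1h1e (0.76, 0.1416) were lost. Hist3h2a and Hist3h2ba were not called in any of these 3 comparisons, with log2 differences from -0.21 to 0.03.

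**Figure D3:**
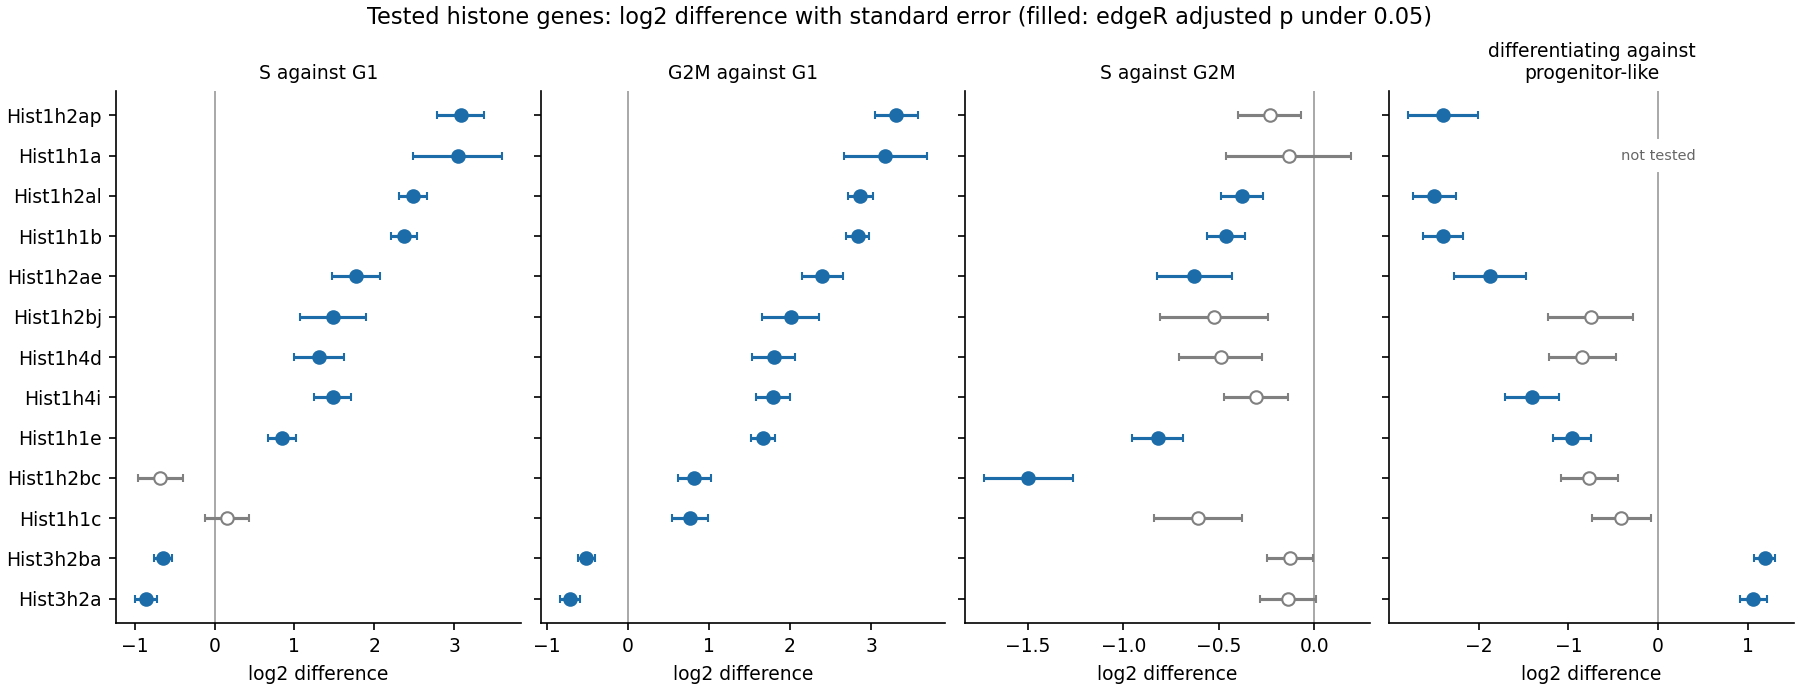
Log2 difference (horizontal axes) of the 13 tested histone genes in 4 comparisons, with bars of 1 standard error on each side. Filled points passed edgeR's test at an adjusted p under 0.05, open points did not, and Hist1h1a was not tested between differentiating and progenitor-like cells. Hist3h2ba and Hist3h2a lie left of 0 in both phases and right of 0 in differentiating cells, opposite to Hist1h1b, Hist1h2ap and Hist1h2al.

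The members fall apart by their annotated ends as well, which is a description over few genes. In S against G1, the 8 tested members without a poly(A) signal at the transcript end had a median log2 difference of 1.93, and 7 of them were higher. The 5 with a signal had a median of 0.15, with 2 higher (Hist1h2ae and Hist1h4i), 2 lower (Hist3h2a and Hist3h2ba) and Hist1h1c not called. In G2M against G1 the medians were 2.42 and 0.77. Among the members without a signal, the annotated transcripts of Hist1h1b (743 bases), Hist1h1a (741), Hist1h2bc (1156) and Hist1h2al (339) held no stem-loop match. How far incomplete annotation of transcript ends enters these medians was not tested.

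The share of cells with any histone UMI followed the same order. With each cell thinned to 2000 UMIs and shallower cells left out, it was 58.5 ± 9.40% in G1, 70.6 ± 8.71% in S and 78.4 ± 3.73% in G2M, and 86.4 ± 1.92% in cells with both scores high. Without thinning it was 61.1%, 66.2%, 71.3% and 78.2%. For Hist1h1b the thinned share was 5.22% in G1, 8.63% in S only, 44.7 ± 4.59% with both scores high and 13.7% in G2M only cells. Myeloid-like cells, taken here as a measure of free RNA, had a Hist1h1b UMI in 0 of 37 cells, which allows a share of up to 8.11%, at a median of 1236 UMIs per cell.

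Clusters formed without the histone genes are given as a description. The cluster whose leading genes besides histones were Top2a, Esco2 and Rrm2 held 1873 ± 130 CPM of histone transcripts, at a median depth of 4222 UMIs per cell. The mitotic cluster led by Ccnb1 and Cdc20 held 1112 ± 214, and the cluster led by Cdc6, Dtl and Cdt1, genes that license and control the start of replication, held 776 ± 273. The cluster led by Hes1 held 456 ± 104. Hist1h1b was at 412 ± 21.3 CPM in the Top2a cluster, 172 ± 82.4 in the Ccnb1 cluster and 88.8 ± 44.4 in the Cdc6 cluster.

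The transition from progenitor-like to differentiating cells divided the same genes again. Summed over all members, histone transcripts were at 907 ± 85.2 CPM in progenitor-like and 657 ± 76.5 in differentiating cells. H1 genes were at 273 ± 18.1 and 100.1 ± 23.1, and H2b genes at 186 ± 22.5 and 294 ± 22.9, so that H2b was the family with more transcript in differentiating cells. Of 12 members tested over 7509 genes, 6 were lower and 2 higher in differentiating cells, where 10.9% of all genes were lower and 10.1% higher. Here too the filter could admit a member through the class in which it was high. Fewer differentiating cells were called as cycling: 13.7% were in S and 17.9% in G2M, against 27.1% and 41.7% of progenitor-like cells. Low-Malat1 cells made up 21.7% and 21.8%.

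Hist3h2ba was at 107, 103, 95.3 and 124 CPM in progenitor-like cells and at 256, 242, 258 and 260.2 in differentiating cells. The 2 groups were far apart and the mice close together in each. The log2 difference was 1.19 (SE 0.12, edgeR adjusted p = 1.022e-20). Hist3h2a was at 90.2, 83.2, 45.9 and 67.2 CPM in progenitor-like and at 167, 158, 68.0 and 174 in differentiating cells. Mouse 3 was lowest in both, so that the groups overlapped although each mouse was higher in differentiating cells (log2 difference 1.06, SE 0.15, adjusted p = 4.519e-11). The differentiating class joined clusters of different levels. Hist3h2ba was at 223 ± 18.2 CPM in the cluster of 355 cells and at 427 ± 79.6 in the low-Malat1 cluster of 114 cells (3 mice). Hist3h2a was at 127 ± 54.1 and 238 ± 30.2 CPM in the same clusters. With cells thinned to 2000 UMIs, a Hist3h2ba UMI was found in 19.9 ± 2.70% of progenitor-like cells and in 40.0 ± 1.97% of differentiating cells, the latter over the 3 mice with enough cells. In myeloid-like cells it was found in 3 of 37 (8.11%).

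The 6 lower members were all among those called higher in S against G1. Of the others called there, Hist1h2bj (log2 difference -0.75, edgeR adjusted p = 0.2789) and Hist1h4d (-0.85, 0.09538) did not pass the test and Hist1h1a was not tested. Hist1h1b was at 149, 124, 135 and 146 CPM in progenitor-like cells and at 15.5, 19.2, 81.6 and 28.0 in differentiating cells. Mouse 3, with 50 differentiating cells, had the highest of these, and the groups did not overlap (log2 difference -2.40, SE 0.22, edgeR adjusted p = 1.739e-25). Hist1h2ap was at 34.3, 37.5, 33.8 and 58.5 CPM and at 3.88, 0, 40.8 and 10.8, so that in mouse 3 it was higher in differentiating cells and the groups overlapped (log2 difference -2.40, SE 0.39, adjusted p = 2.597e-08). Hist1h2al fell by 2.50 on the log2 scale and Hist1h2ae by 1.87. Hist1h4i had a log2 difference of -1.41 (adjusted p = 5.68e-05, 0.07749 without the mouse as a block and 0.05228 with S and G2M scores regressed out). Hist1h1e was at 88.7, 87.9, 101 and 88.8 CPM and at 46.6, 34.6, 40.8 and 53.8, with no overlap (log2 difference -0.96, SE 0.21, adjusted p = 5.68e-05). With cells thinned to 2000 UMIs, the calls of Hist1h1e (-0.67, adjusted p = 0.1528) and Hist1h2ae (-1.02, 0.2018) were lost.

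To set the difference in phases aside, the comparison was repeated in G1 cells alone. Only 3 members had enough counts, and 2 of them were higher in differentiating cells, where 8.07% of 4672 genes were. Hist3h2ba was at 123, 117, 97.4 and 155 CPM in progenitor-like G1 cells and at 277, 258, 246 and 306 in differentiating G1 cells, again with no overlap (log2 difference 1.11, SE 0.15, edgeR adjusted p = 2.068e-08). Hist3h2a was at 121, 98.7, 73.0 and 83.3 and at 190, 179, 103 and 202 (log2 difference 0.90, SE 0.18, adjusted p = 1.059e-04), a call lost in DESeq2 (adjusted p = 0.06078). Hist1h1e did not pass the test (log2 difference -0.05, SE 0.33, adjusted p = 0.9519). The sum of all members was 472 ± 81.1 CPM in progenitor-like and 638 ± 127 in differentiating G1 cells, in the reverse order of that over all phases. Low-Malat1 cells made up 11.7% of the progenitor-like and 19.6% of the differentiating G1 cells, and without them both calls were kept (log2 differences 0.88 for Hist3h2ba and 0.71 for Hist3h2a).

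**Figure D4:**
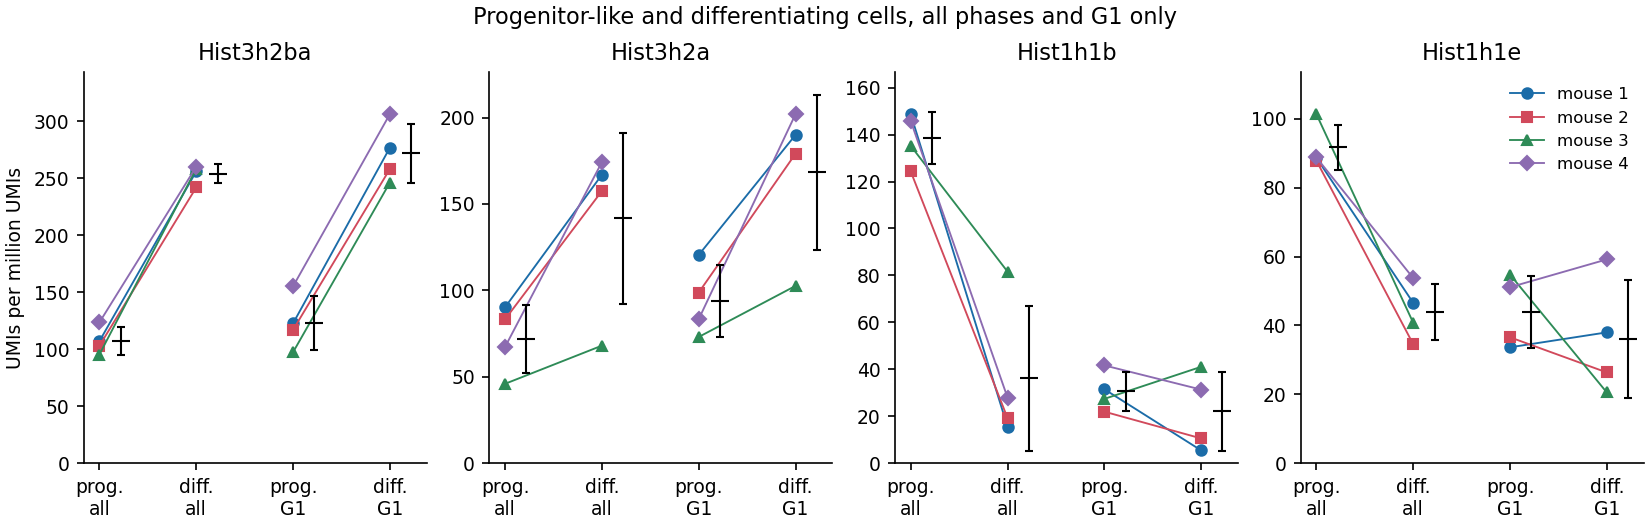
Level of Hist3h2ba, Hist3h2a, Hist1h1b and Hist1h1e (vertical axes, CPM, each from 0) in progenitor-like (prog.) and differentiating (diff.) cells, over all phases and in G1 cells alone. Lines join the 2 values of a mouse, and black bars are mean ± SD. Hist3h2ba and Hist3h2a are higher in differentiating cells of every mouse in both settings, and Hist1h1b drops from 124 to 149 CPM to 15.5 to 81.6 over all phases.

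Outside the granule lineage the numbers of cells were small, and the sum of all members was 529 ± 149 CPM in oligodendrocyte-lineage-like, 783 ± 211 in astroglia-like and 693 ± 332 in myeloid-like cells, against 880.2 ± 76.4 in granule-lineage-like cells. These classes were at 13.0%, 15.8% and 2.70% S phase cells by the same scores, and at 18.5%, 43.9% and 27.0% G2M. Granule markers were at 1076 to 1958 CPM in oligodendrocyte-lineage-like and 1902 to 2284 in astroglia-like cells, and 64.8% of astroglia-like and 46.0% of myeloid-like cells were low in Malat1, against 21.7% of granule-lineage-like cells. The part of such carried-over or damaged material in the values below was not tested.

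Hist1h2bc was called higher than in granule-lineage-like cells in each of the 3 classes. It was at 493, 246, 481 and 125 CPM in the myeloid-like cells of the 4 mice (336 ± 181), against 29.4 ± 9.98 in granule-lineage-like cells. No myeloid value came near the granule range, but each mouse gave only 5 to 14 myeloid-like cells and 20 UMIs of the gene in all. Its log2 difference was 3.02 (SE 0.52, edgeR adjusted p = 3.406e-07), where 3.72% of 6315 genes were higher, and without mouse 1 the call was lost (2.37, adjusted p = 0.06101). In astroglia-like cells it was at 78.8, 249.8, 62.6 and 86.1 CPM, above the granule lineage in all 4 mice (log2 difference 1.86, SE 0.37, adjusted p = 2.6e-05), where 2.69% of genes were higher. Without mouse 2, which was highest, that call was lost (1.32, adjusted p = 0.1005). The astroglia-like clusters differed: Hist1h2bc was at 249.9 ± 160.1 CPM in the cluster of 56 cells (22 UMIs, 3 mice). It was at 22.85 ± 32.32 in the largest, of 58 cells (4 UMIs, 2 mice), and at 97.09 in that of 25 cells (6 UMIs, 1 mouse). In oligodendrocyte-lineage-like cells it was at 21.8, 80.2, 28.8 and 108 CPM, higher in 3 of 4 mice (log2 difference 1.15, SE 0.41, adjusted p = 0.03041), where 11.6% of genes were higher. That call was lost without mouse 2 (0.1847) or 4 (0.3768) and in DESeq2 (0.2939). The differences between the 3 classes were not tested.

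In oligodendrocyte-lineage-like cells, 3 of 12 members were lower, where 10.7% of 7336 genes were: Hist1h2al (log2 difference -1.72, edgeR adjusted p = 4.799e-04), Hist1h1b (-1.47, 0.001185) and Hist1h4i. Hist1h1b was at 45.7 ± 16.8 CPM against 127 ± 10.95, lower in all 4 mice. Hist1h4i had 3 UMIs, with a ratio of 0.225 and a 95% counting interval of 0.0462 to 0.661. Its call was lost without mouse 2 (edgeR adjusted p = 0.07419) or 4 (0.1103), without the mouse as a block (0.05582) and in DESeq2 (0.1126). In myeloid-like cells 3 of 11 members were lower, where 10.6% of genes were. Hist1h1b and Hist3h2a had 0 UMIs there, and with 3 counts over the group as the floor they were at least 2.67-fold and 1.77-fold lower than in granule-lineage-like cells. Hist1h2al had 1 UMI, a ratio of 0.143 with an interval of 0.00363 to 0.801. The myeloid calls were lost in DESeq2 (adjusted p = 0.07038 for Hist1h1b, 0.257 for Hist3h2a, 0.2084 for Hist1h2al) and without mouse 1 (0.05062, 0.1813 and 0.1848). Those of Hist3h2a and Hist1h2al were also lost without mouse 2 (0.09405 and 0.1322) or 4 (0.1659 and 0.06804), and that of Hist1h2al without mouse 3 (0.1367).

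In astroglia-like cells Hist1h2bc was the one member that passed the test. Without mouse 3, Hist1h1b (log2 difference -1.12, edgeR adjusted p = 0.04016) and Hist1h2al (-1.73, 0.003587) were called lower. Hist3h2ba was at 131, 68.7, 173 and 115 CPM in oligodendrocyte-lineage-like and at 90.0, 57.6, 62.6 and 86.1 in astroglia-like cells. The former overlapped the granule lineage (122 ± 15.8) and the latter lay under it in all 4 mice, a difference that did not pass the test (log2 difference -0.62, adjusted p = 0.3652).

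**Figure D5:**
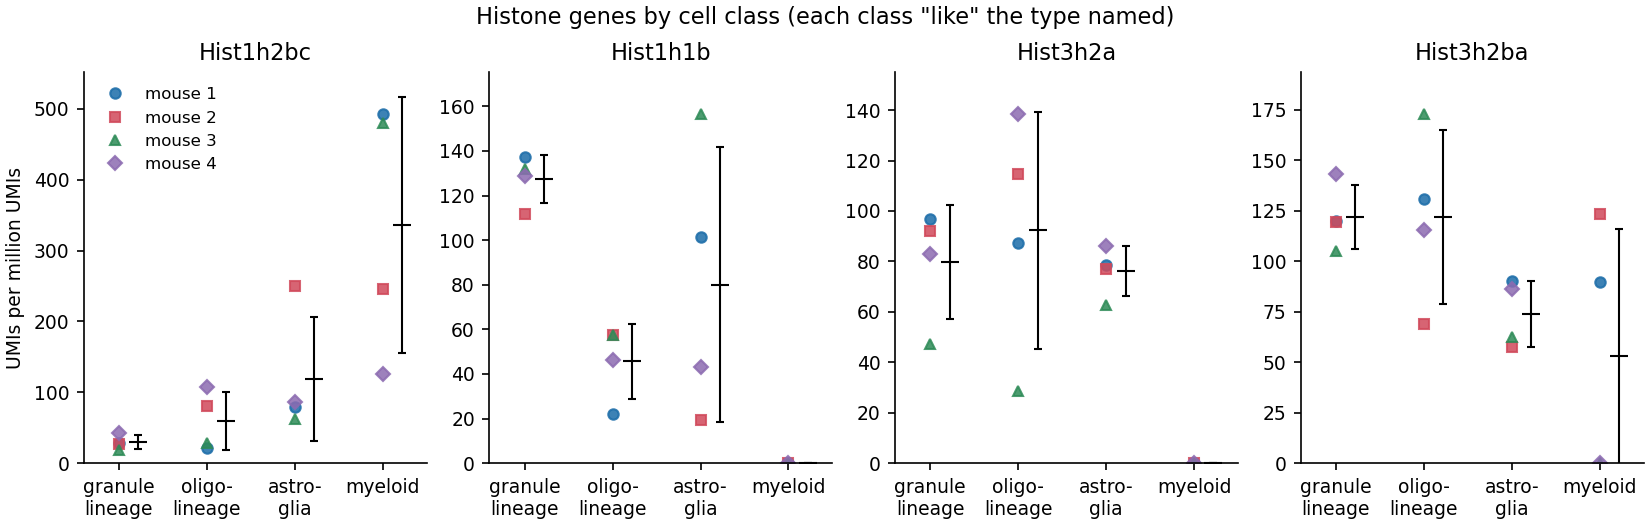
Level of Hist1h2bc, Hist1h1b, Hist3h2a and Hist3h2ba (vertical axes, CPM, each from 0) in granule-lineage-like, oligodendrocyte-lineage-like, astroglia-like and myeloid-like cells (horizontal axis). Points are the 4 mice and black bars are mean ± SD, clipped at 0. Hist1h2bc is highest in myeloid-like cells, at 125 to 493 CPM, and Hist1h1b and Hist3h2a are at 0 there.

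Genes that act on histone transcripts and proteins were described from lists. Of 17 genes for transcription and 3′ processing of histone mRNA, 16 were tested. By edgeR 8 were higher in S than in G1, where 10.7% of all genes were. Their median log2 difference was 0.55, against -0.02 over all genes tested. Slbp, the stem-loop binding protein, was at 406 ± 39.7 CPM in S and 151 ± 18.5 in G1 (log2 difference 1.46, adjusted p = 2.63e-31). Casp8ap2 and Npat, which act at histone locus bodies, had log2 differences of 1.03 and 0.83. Over the score groups, Slbp was at 330.4 ± 49.3 CPM in S only cells, 430 ± 52.5 with both scores high and 148 ± 7.88 in G2M only cells, and was lower in G2M only than in S only cells (log2 difference -1.13, adjusted p = 2.658e-17), where Hist1h1b was higher.

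Of 20 histone chaperones and importers, 14 were higher in S than in G1, where 10.7% of all genes were. The median log2 difference of the 20 was 0.52. The largest differences were those of Asf1b (2.48 on the log2 scale), which hands over H3 and H4, and of Chaf1a and Chaf1b (2.24 and 1.82), subunits of the factor that deposits them behind the replication fork. For Chaf1a no difference between S only cells and cells with both scores high passed the test (55.3 ± 5.15 and 56.1 ± 6.77 CPM, log2 difference 0.09, edgeR adjusted p = 0.8653). In differentiating cells 13 of the 20 were lower and 1 higher, where 10.9% and 10.1% of all genes were. The median log2 difference there was -0.59.

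Of 11 histone variants encoded outside the clusters, 6 were higher and 2 lower in S than in G1, where 10.7% and 7.63% of all genes were. The median log2 difference of the variants was 0.21. H2afz, the H2A.Z gene, was at 4797 ± 323 CPM in S and 3142 ± 57.3 in G1 (log2 difference 0.62, edgeR adjusted p = 2.894e-33). H2afx, the variant marked at DNA breaks, had a log2 difference of 1.43 (adjusted p = 5.082e-24). Cenpa, the centromeric H3, was at 65.1 ± 8.23 CPM in S and 74.5 ± 13.4 in G1, a difference that did not pass the test (adjusted p = 0.4543). It was at 705 ± 21.6 in G2M, a phase in which 9 of the 11 were higher than in G1, where 13.9% of all genes were. In differentiating cells 5 of the variants were lower and 1 higher than in progenitor-like cells, where 10.9% and 10.1% of all genes were. H3f3b, a replication-independent H3 gene, and H1f0, a replication-independent H1 gene, did not pass the test there (log2 differences -0.05 and 0.02, edgeR adjusted p = 0.6011 and 0.9159).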

How the data were processed

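RNA of dissociated tumour cells was measured in 4 libraries, 1 per mouse. The deposited tables hold raw UMI counts per gene and cell barcode. Per the submitters' processing notes, the authors used Cell Ranger 2.0.2, Seurat and the mm10 build, and the annotation release is not given in the sources used here. The members, gene lists and tests were chosen with earlier results of these data known.

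Cells with at least 500 genes and at most 10% mitochondrial UMIs were kept (4137 of 5670 barcodes, 4620 with the gene minimum alone), and 36 cells (0.870%) that Scrublet marked as doublets were removed. Clusters came from scanpy 1.11.5 with leidenalg 0.10.2 (2000 variable genes, 30 components, 15 neighbours, resolution 1, scaling to 10000 UMIs), with histone, phase, comparison-list, mitochondrial, ribosomal and sex-linked genes held out. Clusters were named from at least 3 markers, each at least 1 log2 unit higher and in at least 10% of cells. Differentiating clusters had to exceed the granule lineage's mean by 0.5 log2 units. The progenitor-like class holds 1 cluster, of 306 cells, in which Mbp, an oligodendrocyte marker, was among the leading genes, and tests were repeated without it.

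For each class, the counts of a mouse's cells were added up, and edgeR 4.0.16 (R 4.3.3) fitted these sums with TMM normalization, filterByExpr, its quasi-likelihood test and a term for the mouse. The filter keeps a gene with enough counts in any class of the fit. A member can thus enter through the class where it is high. P-values were adjusted over every gene in the fit by Benjamini-Hochberg, with a threshold of 0.05. Standard errors were worked back from the test. Classes of 1 mouse come from the same library, which is where the pairing comes from, and their deviations from the class means correlated by 0.0154 to 0.483. The mice are littermates, so p-values describe the spread between these 4 animals. Intervals from counts are exact at 95%, and fold limits for genes without a UMI take 3 counts as the floor. Both cover counting error only. Genes described one by one are the 5 markers Hist1h1b, Hist1h2ap, Hist1h2ae, Hist1h1e and Hist3h2ba, the 3 highest members of each family, and up to 4 called members with the largest rise or fall in each comparison that moved alike in every mouse. Hist1h2bc and Hist3h2a were followed through further comparisons after their values were seen.

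Alternatives were no filter, no block, relative log expression size factors, DESeq2 1.42.0, leaving out each mouse, thinning to 2000 UMIs, phases from UMI shares, progenitor-like cells alone, scores regressed out before clustering, and leaving out low-Malat1 cells or the cluster with Mbp. The test was checked on simulated counts with known differences. Transcripts come from GENCODE M21 and promoters from RefSeq, compared with edlib 1.3.9.post1.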

Additional observations from a re-analysis of the deposited data

Results flagged for a closer look

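Of 112 sets of 4 mice tested with Dixon's criterion, 8 held a mouse apart from the other 3, and chance gives about 1 in 20. In S cells, Hist1h1c was at 8.518 CPM (UMIs per 1000000 UMIs) in mouse 2 and at 26.4 to 28.9 in the other mice. In G2M cells, Hist1h1e was at 100.9 in mouse 4 and at 138.7 to 144.7 in the others. In S only cells, Hist1h1b was at 40.29 in mouse 3 against 31.1 to 32.3, and Hist1h4i at 29.79 in mouse 4 against 7.78 to 10.1. In G2M only cells, Hist1h2al was at 137.9 in mouse 3 against 56.1 to 61.1. In progenitor-like cells, Hist1h2ap was at 58.47 in mouse 4 against 33.8 to 37.5, and Hist1h1e at 101.4 in mouse 3 against 87.9 to 88.8. In differentiating cells, Hist3h2a was at 68.01 in mouse 3 against 157.5 to 174.2. Mouse 3 had the fewest cells (680) and the lowest median depth (1699 UMIs per cell), and the part of these in its values was not tested.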

How the results depend on the processing

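Of the counts of members called and the group levels under an alternative, 299 kept their call or stayed within the spread, 27 became smaller counts or lost calls, 4 became larger and 9 levels or shares moved. Of the single-member results, 1322 kept direction and call, 82 lost it, 13 gained it and 2 turned in sign: with phases from UMI shares, the S against G2M log2 difference was 0.04294 for Hist1h1b and 0.1936 for Hist1h2al. Without the replicate block, members called were 1 lower in G2M against G1, 2 lower in S against G2M, 5 higher and 0 lower with both scores high against G2M only, and 4 higher in G2M only against S only. No filter gave 20 higher in G2M against G1, 17 higher with both scores high against S only, and 0 higher and 5 lower in oligodendrocyte-lineage-like cells. Progenitor-like cells alone gave 1 lower in G2M against G1. In S against G2M, members lower were 3 in DESeq2, 3 after thinning, 2 with phases from UMI shares, 3 without the cluster with Mbp (added after seeing the data) and 3 to 5 when a mouse was left out. DESeq2 gave 1 higher between differentiating and progenitor-like G1 cells, 0 higher in oligodendrocyte-lineage-like and 0 lower in myeloid-like cells. Relative log expression size factors gave 1 lower in myeloid-like cells. Thinning gave 5 higher with both scores high against S only, 5 higher and 0 lower against G2M only, and 2 higher in G2M only against S only, over fewer cells and 7 tested members. Leaving out a mouse gave 0 to 1 higher in oligodendrocyte-lineage-like, astroglia-like and myeloid-like cells, 0 to 2 lower in astroglia-like and 0 to 2 lower in myeloid-like cells. Thinned to 2000 UMIs, H1 was at 437.6 CPM in G2M, H2a at 374.5 in S and H3 at 13.3 in G1. Shares of cells with a histone UMI at 1000 UMIs were 40.55% in G1, 47.22% in S, 56.17% in G2M, 47.32% in progenitor-like and 52.5% in differentiating cells, and 71.26% in G2M unthinned. The cause of these changes was not tested. Thinning of the 3 classes outside the granule lineage, and leaving out low-Malat1 cells in astroglia-like and myeloid-like cells, were not run. Depth limited the H3 genes, of which none could be tested, and the 37 myeloid-like cells, in which single members rest on 0 to 20 UMIs.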
